A study of Mus musculus with 35 samples.

Results

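Grb14, Ndrg2, Sp9, Acox2, Ryr2, Eml5, Dapk1 and Rxra are 8 genes, of 55487 listed in the count tables, selected on the RNA difference between Ogfod1 genotypes of mouse leukemia cells under vehicle or treatment. The rule for choosing them gave no numeric threshold. Since RNA differences between genotypes chose the genes, they are given here as a description, without a test. All 8 genes were found by symbol and passed the filter on low counts in both assays, as did 21474 genes in all in RNA and 18290 in ribosome footprints.

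The cells were MLL-AF9 acute myeloid leukemia cells, driven by a fusion of Kmt2a with Mllt3, that express GFP and derive from 1 leukemic mouse. They carried a guide RNA against Ogfod1 (sgOgfod1) or a scrambled guide (sgScramble), and the cells were injected into male mice aged 8 to 10 weeks. Treated mice were fed a diet free of branched-chain amino acids and received 5+3 chemotherapy, meaning 5 daily doses of cytarabine (100 mg/kg) and, over the first 3 of those days, doxorubicin (3 mg/kg). Vehicle mice were fed standard amino acids and received PBS. The sources used here do not give the mouse strain or say whether a line is 1 clone. Diet and chemotherapy changed together and cannot be told apart, so the combination is called treatment. At the time of maximum response, viable GFP-positive marrow cells were sorted.

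RNA came from 6 treated sgOgfod1, 7 treated sgScramble, 5 vehicle sgOgfod1 and 5 vehicle sgScramble mice. Footprints, the mRNA fragments protected by ribosomes, came from 2, 4, 3 and 3 of these mice in that order. RNA libraries held 31921768 to 142694163 counts and footprint libraries 5705585 to 14642692. Levels are in CPM, counts scaled to a common library size, and errors are the standard deviation (SD) over mice unless a standard error (SE) is named. In RNA, treated sgScramble replicate 4 and treated sgOgfod1 replicate 3 lay farthest from the rest on the first principal component, at -118 and -68.9 where the others lay between -40.7 and 41.8. Without this pair the number of genes called between genotypes was larger, at 88 under vehicle and 394 under treatment. Of 15 defining genes of myeloid leukemia all passed the filter in RNA, with a summed level of 5380 to 10600 CPM over all libraries. Among markers of other cells, summed erythroid RNA was 12.7 to 27.3 CPM in vehicle sgOgfod1 and 1.73 to 4.38 CPM in vehicle sgScramble mice. Summed stromal and endothelial RNA was 129 to 158 CPM in vehicle sgOgfod1 and 191 to 222 CPM in vehicle sgScramble mice. Summed megakaryocyte and platelet RNA was 7.69 to 12.9 CPM in vehicle sgOgfod1 and 13.5 to 16 CPM in vehicle sgScramble mice, and none of these 3 sums overlapped. Of their tested markers, 11, 10 and 10 in that order, 0 were called under vehicle, where 0.116% of all genes were called. Their median log2 fold changes were 2.61, -0.55 and -0.04. Pecam1, at a mean of 85.4 CPM in RNA, and Gp1bb, at 10.7 CPM, were the most abundant stromal and megakaryocyte markers. In footprints under vehicle the erythroid and megakaryocyte sums overlapped and the stromal sum did not. In treated footprints the stromal sum was 62.8 to 73.8 CPM in sgOgfod1 and 96.3 to 130 CPM in sgScramble mice. The megakaryocyte sum was 2.4 to 4.93 and 5.95 to 14.1 CPM in the same order, and neither overlapped. The RNA sums of the other marker lists overlapped under vehicle. The share of genes or lists without overlap was not computed. Of 8 tested mast cell and basophil markers 1 was called higher in vehicle sgOgfod1 RNA, with a median log2 fold change of 2.36 over the list and sums of 125 to 1050 CPM in vehicle sgOgfod1 and 172 to 208 CPM in vehicle sgScramble mice, which overlapped. Of 16 tissue macrophage markers 1 was called lower in treated sgOgfod1 RNA. In vehicle sgOgfod1 footprints 1 of 6 stromal markers was called lower, and 1 of 14 macrophage and 1 of 5 mast cell markers higher. Among markers of other cells in treated sgOgfod1 footprints, 1 of 5 megakaryocyte markers was called lower. The shares of all genes called in footprints were 1.81% under vehicle and 1.58% under treatment. The part of these cells in the gene differences was not tested. In sorted bulk cells, fewer cells of a type and less RNA per cell cannot be told apart.

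Ogfod1, on chromosome 8, is a prolyl hydroxylase of the small ribosomal subunit protein uS12. Its RNA averaged 9.19 ± 3.02 CPM in treated sgOgfod1 and 21.8 ± 6.22 CPM in treated sgScramble mice, and 10.8 ± 1.34 CPM in vehicle sgOgfod1 and 22.7 ± 1.92 CPM in vehicle sgScramble mice. Its footprints averaged 2.17 ± 1.03 CPM in treated sgOgfod1 and 14.9 ± 2.15 CPM in treated sgScramble mice. Under vehicle they averaged 2.41 ± 0.674 CPM in sgOgfod1 and 14.5 ± 0.872 CPM in sgScramble mice. The footprint groups did not overlap, while in RNA treated sgOgfod1 replicate 2, at 13.0 CPM, lay above treated sgScramble replicate 4, at 12.2 CPM.

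The 8 genes belong to unrelated families. Grb14 is an adaptor that binds the insulin receptor and restrains its signalling, and Ndrg2 is a cytoplasmic protein of the NDRG family often described as a growth suppressor. Sp9 is a zinc finger transcription factor best known from forebrain and limb development, and Acox2 is a peroxisomal oxidase for branched-chain fatty acids and bile acid intermediates. Ryr2 is the ryanodine receptor that releases calcium from the sarcoplasmic reticulum in heart muscle. Eml5 is a microtubule-associated protein, Dapk1 a calmodulin-regulated death-associated kinase, and Rxra the nuclear receptor RXR alpha, the partner of retinoic acid and other receptors. Ribosome footprints report how much mRNA is occupied by ribosomes, so that the ratio of footprints to RNA is a measure of translation efficiency.

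The genes lie on chromosomes 2, 12, 13 and 14 (GRCm38, GENCODE M21). Grb14 spans chr2:64912476-65024987 on the minus strand, Sp9 chr2:73271925-73284706 on the plus strand and Rxra chr2:27676440-27762957 on the plus strand. Ryr2 spans chr13:11553102-12106945 on the minus strand and Dapk1 chr13:60601947-60763191 on the plus strand. Ndrg2 spans chr14:51905271-51914158, Acox2 chr14:8225511-8259353 and Eml5 chr12:98786805-98901484, all on the minus strand. Coding lengths ran from 1113 bases in Ndrg2 to 14898 bases in Ryr2. Smart-seq2 keeps no strand, so reads of 2 of the genes may include those of a gene on the opposite strand. Eml5 overlaps Zc3h14, which averaged 255 CPM and had genotype log2 fold changes of 0.14 ± 0.13 under treatment and 0.16 ± 0.14 under vehicle (SE). Sp9 overlaps Cir1, which averaged 10.1 CPM and had -0.22 ± 0.21 under treatment and -0.03 ± 0.24 under vehicle (SE). RNA values of Eml5 and Sp9 are uncertain to that extent.

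The sequences below are the 250 bases before the RefSeq start (GRCm38.p6) of 2 genes that were higher and 2 that were lower in sgOgfod1 RNA, each with 1 listed start, to let promoters of genes that differed in opposite directions be read side by side. RefSeq promoters matched all 8 genes, with 12 starts in all. The Grb14 window lies inside the GENCODE span of the gene given above, and 16 of its bases are in a Grb14 exon. Of the Sp9 window 1 base is in an Sp9 exon. Capitals mark exact matches, on either strand, to the GC box GGGCGG, the nuclear receptor half-site AGGTCA, the E-box CACGTG, the CCAAT box CCAAT or the TATA box TATAAA. No motif searched contains another.
Grb14, chr2:65022767-65023016, minus strand: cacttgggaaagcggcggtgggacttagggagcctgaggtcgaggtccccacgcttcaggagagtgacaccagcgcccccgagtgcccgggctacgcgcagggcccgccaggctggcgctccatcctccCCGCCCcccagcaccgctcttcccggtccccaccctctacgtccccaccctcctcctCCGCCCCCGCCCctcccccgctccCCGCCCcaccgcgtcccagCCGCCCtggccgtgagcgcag
Sp9, chr2:73271676-73271925, plus strand: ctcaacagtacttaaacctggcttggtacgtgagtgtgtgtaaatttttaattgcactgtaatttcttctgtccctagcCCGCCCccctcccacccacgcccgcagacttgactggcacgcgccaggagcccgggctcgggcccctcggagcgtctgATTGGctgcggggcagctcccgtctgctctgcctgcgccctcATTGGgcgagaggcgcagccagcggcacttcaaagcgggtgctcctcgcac
Ryr2, chr13:12106946-12107195, minus strand: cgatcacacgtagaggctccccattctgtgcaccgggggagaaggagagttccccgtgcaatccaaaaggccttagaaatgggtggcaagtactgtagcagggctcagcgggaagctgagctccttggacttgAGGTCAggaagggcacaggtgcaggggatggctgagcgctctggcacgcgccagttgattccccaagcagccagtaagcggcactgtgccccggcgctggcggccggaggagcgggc
Eml5, chr12:98901485-98901734, minus strand: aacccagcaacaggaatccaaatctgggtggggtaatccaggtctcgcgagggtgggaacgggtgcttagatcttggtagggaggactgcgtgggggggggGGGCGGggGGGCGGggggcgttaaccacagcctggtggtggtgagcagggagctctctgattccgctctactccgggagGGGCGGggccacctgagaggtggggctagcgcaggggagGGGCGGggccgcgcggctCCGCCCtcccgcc

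The GC box was found 5 times in the Grb14 window, 1 time in that of Sp9, 0 times in that of Ryr2 and 5 times in that of Eml5, and 32.7% of 32851 mouse windows of this length hold it. The half-site was found 1 time in the Ryr2 window and is held by 14.0% of windows, and CCAAT was found 2 times in the Sp9 window and is held by 33.8%. None of the 4 windows held the E-box, held by 6.02% of windows, or the TATA box, held by 12.4%. G and C made up 75.2% of the Grb14 window, 62.4% of that of Sp9, 63.2% of that of Ryr2 and 70.0% of that of Eml5, against a median of 52.4% over all windows. All 4 windows had more G and C than the median window.

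Grb14 RNA was higher in vehicle sgOgfod1 cells than in any vehicle sgScramble library. It measured 12.5, 9.59, 9.48, 11.6 and 10.3 CPM in vehicle sgOgfod1 mice and 0.501, 0.700, 0.588, 0.659 and 0.211 CPM in vehicle sgScramble mice, which is 13 to 45 reads. The groups did not overlap, and the log2 fold change was 4.32 ± 0.83 (SE). Under treatment its lowest, median and highest levels were 0.119, 2.37 and 7.49 CPM in sgOgfod1 and 0, 1.77 and 2.68 CPM in sgScramble mice. These groups overlapped, with a log2 fold change of 0.94 ± 0.64 (SE). By the library number in the labels, the change under treatment was 0.02 ± 0.34 among treated libraries numbered below 17 and 1.51 ± 0.88 among those numbered 17 or higher (SE).

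Ndrg2 RNA was higher in sgOgfod1 cells in both conditions. Under treatment its lowest, median and highest levels were 7.55, 19.9 and 53.8 CPM in sgOgfod1 and 2.89, 4.71 and 9.14 CPM in sgScramble mice. Of the sgOgfod1 mice, 5 of 6 lay above every sgScramble mouse. Under vehicle it measured 14.4, 5.79, 11.8, 11.7 and 9.59 CPM in sgOgfod1 and 1.00, 0.630, 1.37, 1.02 and 0.308 CPM in sgScramble mice, without overlap. In log2 terms the change was 2.15 ± 0.40 under treatment and 3.62 ± 0.50 under vehicle (SE).

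Sp9 RNA was below 0.5 CPM in all sgScramble libraries. Under treatment its lowest, median and highest levels were 1.67, 10.5 and 34.6 CPM in sgOgfod1 and 0.233, 0.375 and 0.483 CPM in sgScramble mice, without overlap. Under vehicle it measured 1.68, 2.41, 0.0874, 0.730 and 5.01 CPM in sgOgfod1 and 0.147, 0.140, 0.160, 0.102 and 0.0648 CPM in sgScramble mice, where sgScramble libraries held 4 to 9 reads. Vehicle sgOgfod1 replicate 3, with 4 reads, lay within the sgScramble range, and the other 4 lay above it. Sp9 differed by log2 fold changes of 5.10 ± 0.72 under treatment and 4.01 ± 0.85 under vehicle (SE).

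Acox2 RNA had the same order in both conditions. Its lowest, median and highest levels were 5.15, 13.9 and 37.8 CPM in treated sgOgfod1 and 0.0194, 1.27 and 2.78 CPM in treated sgScramble mice. Under vehicle it measured 5.22, 4.16, 6.53, 5.35 and 3.82 CPM in sgOgfod1 and 0.442, 0.0700, 0.446, 0.425 and 0.324 CPM in sgScramble mice. Neither pair of groups overlapped, and the log2 fold changes were 3.75 ± 0.61 and 3.88 ± 0.75 (SE) under treatment and vehicle. Treated sgOgfod1 replicates 1, 2 and 4 held the 3 highest levels of Sp9, of Acox2 and of Ndrg2 in their group. Their Acox2 levels were 36.1, 21.3 and 37.8 CPM, where replicates 3, 5 and 6 had 6.27, 6.45 and 5.15 CPM.

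Ryr2 RNA was lower in sgOgfod1 cells, without overlap in either condition. Its lowest, median and highest levels were 0.363, 0.771 and 1.52 CPM in treated sgOgfod1 and 7.06, 12.9 and 23.5 CPM in treated sgScramble mice. Under vehicle it measured 0.328, 0.248, 0.765, 0.487 and 0.162 CPM in sgOgfod1 and 2.80, 3.03, 3.96, 3.59 and 5.12 CPM in sgScramble mice. Ryr2 had log2 fold changes of -3.96 ± 0.41 under treatment and -3.22 ± 0.45 under vehicle (SE). Among treated libraries numbered below 17 the change was -4.92 ± 0.55 and among those numbered 17 or higher it was -3.33 ± 0.46 (SE).

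Eml5 RNA was the most abundant of the 8 in CPM. Under vehicle it measured 84.2, 87.3, 37.95, 51.2 and 112 CPM in sgOgfod1 and 180, 193, 159, 194 and 230 CPM in sgScramble mice, without overlap. Under treatment its lowest, median and highest levels were 35.1, 55.9 and 114 CPM in sgOgfod1 and 61.5, 86.4 and 113 CPM in sgScramble mice. These groups overlapped through sgOgfod1 replicate 2, the highest mouse of all 13. Eml5 had log2 fold changes of -0.53 ± 0.24 under treatment and -1.36 ± 0.27 under vehicle (SE).

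Dapk1 and Rxra RNA differed by less than the other 6 genes under vehicle. The lowest, median and highest levels of Dapk1 were 3.04, 4.90 and 7.62 CPM in treated sgOgfod1 and 8.65, 11.4 and 14.7 CPM in treated sgScramble mice. Under vehicle Dapk1 measured 3.14, 4.87, 5.00, 4.48 and 4.40 CPM in sgOgfod1 and 5.75, 5.14, 6.68, 8.27 and 7.84 CPM in sgScramble mice. The groups did not overlap in either condition, though under vehicle the highest sgOgfod1 mouse lay just below the lowest sgScramble mouse. The lowest, median and highest levels of Rxra were 6.28, 9.82 and 14.7 CPM in treated sgOgfod1 and 15.2, 19.7 and 24.1 CPM in treated sgScramble mice. Under vehicle Rxra measured 11.5, 11.8, 13.1, 8.95 and 12.7 CPM in sgOgfod1 and 15.8, 14.3, 19.3, 19.6 and 16.8 CPM in sgScramble mice. Rxra groups did not overlap either. The log2 fold changes of Dapk1 were -1.26 ± 0.20 under treatment and -0.62 ± 0.22 under vehicle, and those of Rxra -1.01 ± 0.18 and -0.56 ± 0.20 (SE). Called genes were those with an adjusted p under 0.05 by edgeR's quasi-likelihood test, with adjustment over all genes. By that rule 6 of the 8 were called under treatment, all but Grb14 and Eml5, where 0.391% of all genes were called. Under vehicle 5 of the 8 were called, all but Sp9, Dapk1 and Rxra, where 0.116% of all genes were called. Nothing is read from these counts, or from how often a call was kept below, since the same contrasts chose the genes. The vehicle call was kept in 17 of 30 alternatives for Grb14, 13 for Eml5, 18 for Acox2, 29 for Ndrg2 and 30 for Ryr2, and Sp9 was called in 7. Leaving out any 1 vehicle mouse ended the vehicle calls of Grb14 and Acox2, and any but sgOgfod1 replicate 5 that of Eml5, while every direction was kept. Leaving out treated sgOgfod1 replicate 1 ended those of Grb14 and Eml5, and leaving out treated sgOgfod1 replicate 6 or treated sgScramble replicate 2, 3, 5 or 6 that of Eml5. Under treatment 8 alternatives ended a call, none of them by leaving out 1 mouse.

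**Figure D1:**
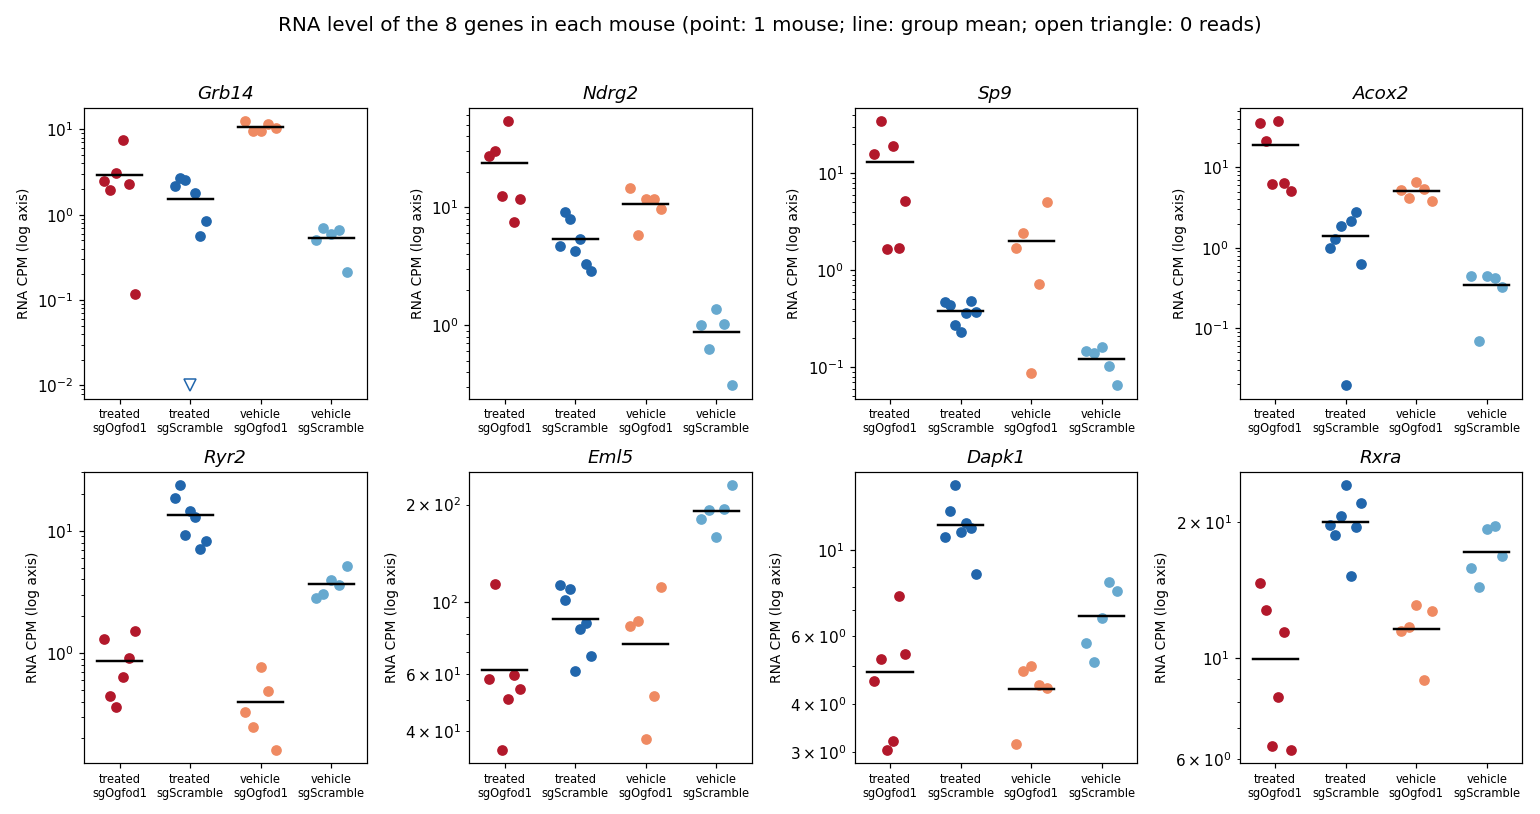
RNA CPM of the 8 genes on log axes, with 1 point per mouse, a line at each group mean and an open triangle for the 1 library with 0 reads of Grb14. Ryr2 sits below 1.6 CPM in all sgOgfod1 mice and above 2.7 CPM in all sgScramble mice, and treated sgOgfod1 mice spread widely in Sp9 and Acox2.

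Per kilobase of exon, Ndrg2 had the highest RNA level of the 8 in treated sgOgfod1 cells, at 7.00 ± 5.08 CPM per kilobase, and Eml5 the next, at 5.14 ± 2.24. Acox2 followed with 5.09 ± 4.12, and the spreads of these 3 neighbours overlapped. In treated sgScramble cells Eml5 led with 7.39 ± 1.66, ahead of Rxra with 3.66 ± 0.508. In vehicle sgOgfod1 cells Eml5 had 6.19 ± 2.46 and Ndrg2 3.14 ± 0.947, and in vehicle sgScramble cells Eml5 had 15.9 ± 2.14 and Rxra 3.14 ± 0.411 CPM per kilobase. Ryr2, whose exons sum to 28.8 kilobases, had the lowest level in treated and in vehicle sgOgfod1 cells, at 0.0300 ± 0.0164 and 0.0138 ± 0.00825 CPM per kilobase.

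Footprints were not used in choosing the genes and give a second assay, although on 12 of the same mice. Grb14 and Eml5 footprints were called between genotypes under vehicle, and Eml5 and Acox2 footprints under treatment, where the background shares of genes called were 1.81% and 1.58%. Grb14, Sp9 and Acox2 passed the footprint filter, which asked for about 1.08 CPM in at least 2 libraries, only through sgOgfod1 mice. Of 7 sgScramble libraries 1, 0 and 0 reached that level for these genes, so that the filter favoured a higher level in sgOgfod1 and their footprint tests are not independent of it. The calls of Grb14 and Acox2 are therefore not read against the background shares. Grb14 footprints measured 3.92, 3.79 and 4.43 CPM in vehicle sgOgfod1 and 0.397, 0.249 and 0.211 CPM in vehicle sgScramble mice, without overlap. The log2 fold change was 3.76 ± 0.70 (SE), with an adjusted p of 0.018 by edgeR's quasi-likelihood test. Vehicle sgScramble libraries held 2 to 4 reads of Grb14. The call was lost without vehicle sgOgfod1 replicate 3 or any of the 3 vehicle sgScramble replicates, with log2 fold changes of 3.57 to 4.08.

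Eml5 footprints measured 1.54, 2.47 and 5.67 CPM in vehicle sgOgfod1 and 12.0, 12.0 and 12.6 CPM in vehicle sgScramble mice, without overlap. They fell by 1.79 ± 0.34 on the log2 scale (SE, edgeR adjusted p = 0.0196). Under treatment they measured 1.80 and 0.925 CPM in sgOgfod1 and 7.71, 4.28, 5.87 and 5.95 CPM in sgScramble mice, and fell by 2.12 ± 0.46 (SE, edgeR adjusted p = 0.0394). The treated call was lost in 12 of 19 alternatives, among them leaving out any treated mouse or any vehicle sgScramble mouse, with the change between -2.67 and -1.73 in all 19. Both treated sgOgfod1 footprint libraries carry numbers of 17 or higher. With a term for that set the change was -2.10 and the adjusted p 0.154 by edgeR. Under vehicle the call was lost without vehicle sgOgfod1 replicate 4, at -1.64, or any vehicle sgScramble replicate, at -1.81 to -1.77. It was kept without vehicle sgOgfod1 replicate 5, the highest of its group, where the change was -2.63.

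Acox2 footprints measured 15.2 and 2.16 CPM in treated sgOgfod1 and 0.326, 0.357, 1.03 and 0.271 CPM in treated sgScramble mice, without overlap. The log2 fold change was 4.16 ± 0.72 (SE, edgeR adjusted p = 0.0176), on 2 to 7 reads in treated sgScramble libraries. It was 3.74 with an adjusted p of 0.153 by edgeR with the term for libraries numbered 17 or higher. Without treated sgOgfod1 replicate 4 it was 2.15, with an adjusted p of 0.110 by edgeR. The call was also lost without treated sgScramble replicate 1 or 2, at 3.99 and 4.03. Under vehicle Acox2 footprints measured 2.61, 0.989 and 2.03 CPM in sgOgfod1 and 0.198, 0.249 and 0.106 CPM in sgScramble mice, without overlap, but the log2 fold change of 3.32 ± 0.99 (SE) had an edgeR adjusted p of 0.117.

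Ndrg2 and Sp9 footprints missed the threshold in both conditions. Ndrg2 footprints measured 3.68, 5.11 and 5.05 CPM in vehicle sgOgfod1 and 0.595, 0.249 and 0.528 CPM in vehicle sgScramble mice, without overlap, with a log2 fold change of 3.26 ± 0.81 (SE, edgeR adjusted p = 0.076). Under treatment they measured 12.1 and 1.34 CPM in sgOgfod1 and 1.85, 3.80, 3.38 and 3.52 CPM in sgScramble mice. The 2 treated sgOgfod1 mice lay on either side of the sgScramble mice, and the log2 fold change of 1.11 ± 0.61 (SE) became -1.21 without replicate 4. Grb14 footprints under treatment did the same, with 3.50 and 0.206 CPM in sgOgfod1 and 0.760, 0.594, 1.47 and 0.676 CPM in sgScramble mice. Their log2 fold change was 1.11 ± 0.66 (SE, edgeR adjusted p = 0.44), and it was -1.99 without treated sgOgfod1 replicate 4. Sp9 footprints measured 7.60 and 0.822 CPM in treated sgOgfod1 and 0.434, 0.475, 0.147 and 0.271 CPM in treated sgScramble mice, on 1 to 4 reads in the sgScramble libraries. Under vehicle they measured 0.238, 0.495 and 1.91 CPM in sgOgfod1 and 0.0992, 0.125 and 0.317 CPM in sgScramble mice, which overlapped. The log2 fold changes of Sp9 were 3.57 ± 0.86 under treatment and 2.43 ± 1.12 under vehicle (SE), with edgeR adjusted p of 0.0647 and 0.295.

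Ryr2, Dapk1 and Rxra footprints gave no call in either condition. Ryr2 footprints measured 1.50 and 1.95 CPM in treated sgOgfod1 and 2.61, 4.76, 2.50 and 2.71 CPM in treated sgScramble mice. Under vehicle they measured 1.42, 0.330 and 1.42 CPM in sgOgfod1 and 0.992, 2.12 and 0.423 CPM in sgScramble mice. The treated groups did not overlap and the vehicle groups did. The log2 fold changes were -0.87 under treatment, with a 95% interval from -1.89 to 0.16, and 0.00 under vehicle, with an interval from -0.95 to 0.95.

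Reads assigned to muscle genes were present in the footprint libraries, and Ryr2 is itself a muscle gene. Summed over 12 skeletal and heart muscle markers, footprints were 1450 and 783 CPM in treated sgOgfod1, 1160, 1290, 2070 and 1520 CPM in treated sgScramble, 951, 2470 and 880 CPM in vehicle sgOgfod1 and 964, 802 and 897 CPM in vehicle sgScramble mice. The same sum in RNA was 5.79 to 28.9 CPM. Acta1, the skeletal muscle actin, averaged 628 CPM in footprints and 0.268 CPM in RNA. The 12 markers were uneven in footprints. Ttn, Actc1 and Myh4 averaged 238, 122 and 113 CPM there, and Myh6, Myh7 and Tnnt2 averaged 3.6, 3.61 and 0.507 CPM. Vehicle sgOgfod1 replicate 4 had the highest muscle sum and the lowest Ryr2 footprint level, 0.330 CPM on 2 reads. Treated sgScramble replicate 3, with the next highest sum, had 2.50 CPM of Ryr2. The source of the reads assigned to muscle genes was not tested, nor was its part in the Ryr2 footprints.

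Dapk1 footprints measured 1.30 and 3.18 CPM in treated sgOgfod1 and 2.82, 4.87, 4.70 and 3.25 CPM in treated sgScramble mice. Under vehicle they measured 3.68, 2.14 and 2.71 CPM in sgOgfod1 and 3.37, 3.36 and 3.06 CPM in sgScramble mice. The groups overlapped in both conditions. The log2 fold changes were -0.80 under treatment, with a 95% interval from -1.53 to -0.06, and -0.19 under vehicle, from -0.85 to 0.48, and the edgeR adjusted p were 0.269 and 0.812. Rxra footprints measured 3.10 and 2.67 CPM in treated sgOgfod1 and 2.39, 2.02, 3.96 and 3.25 CPM in treated sgScramble mice. Under vehicle they measured 3.21, 3.63 and 2.83 CPM in sgOgfod1 and 2.48, 2.87 and 3.49 CPM in sgScramble mice, with overlap in both conditions. For Rxra the log2 fold changes were 0.01 under treatment, with a 95% interval from -0.60 to 0.62, and 0.11 under vehicle, from -0.47 to 0.68.

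**Figure D2:**
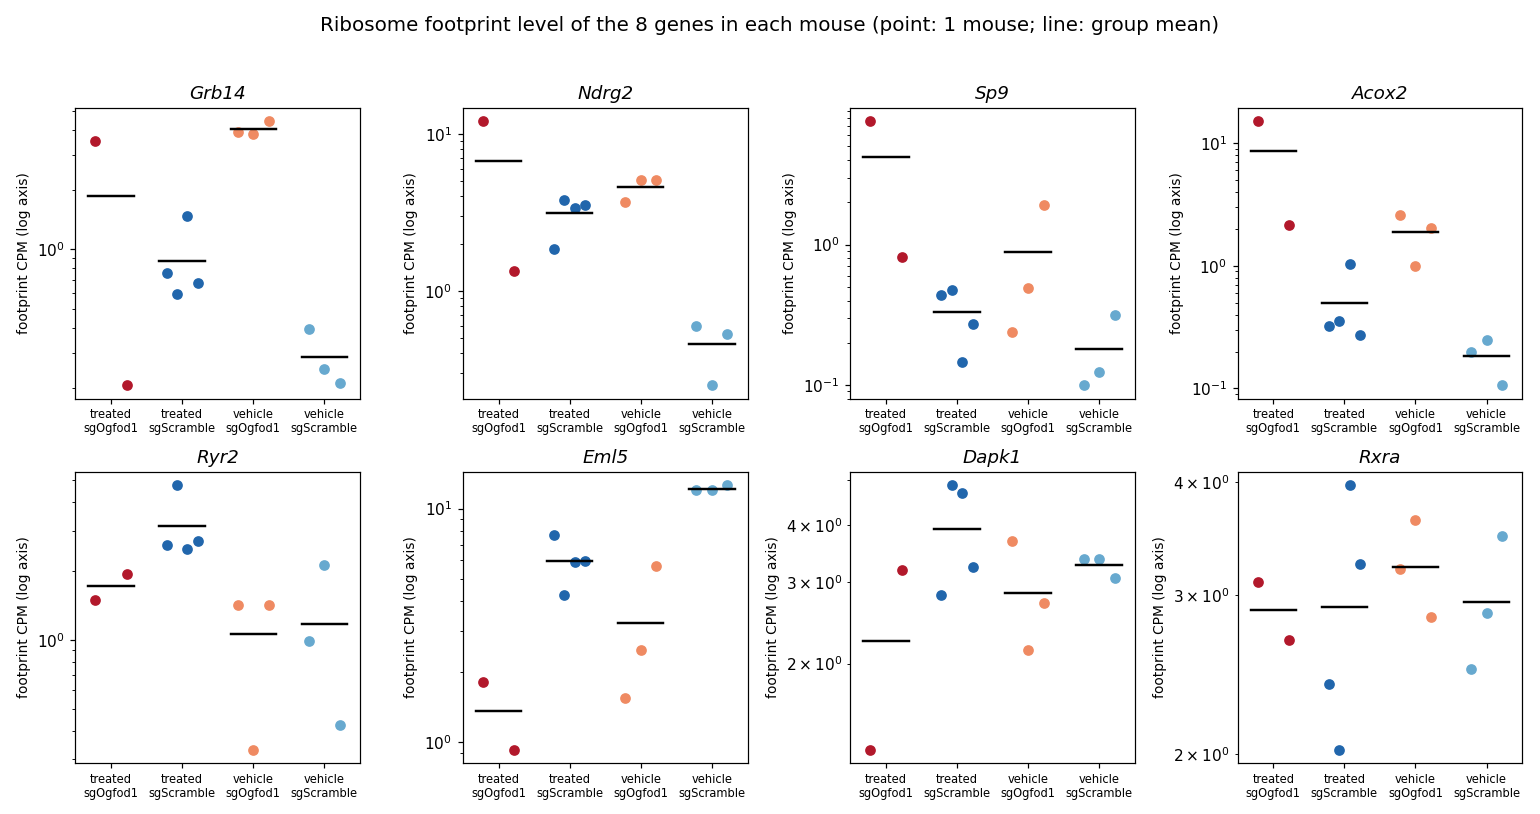
Footprint CPM of the 8 genes on log axes, with 1 point per mouse and a line at each group mean. The 2 treated sgOgfod1 mice differ widely in Grb14, Ndrg2, Sp9 and Acox2, and Rxra lies between 2.02 and 3.96 CPM in all 12 mice.

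**Figure D3:**
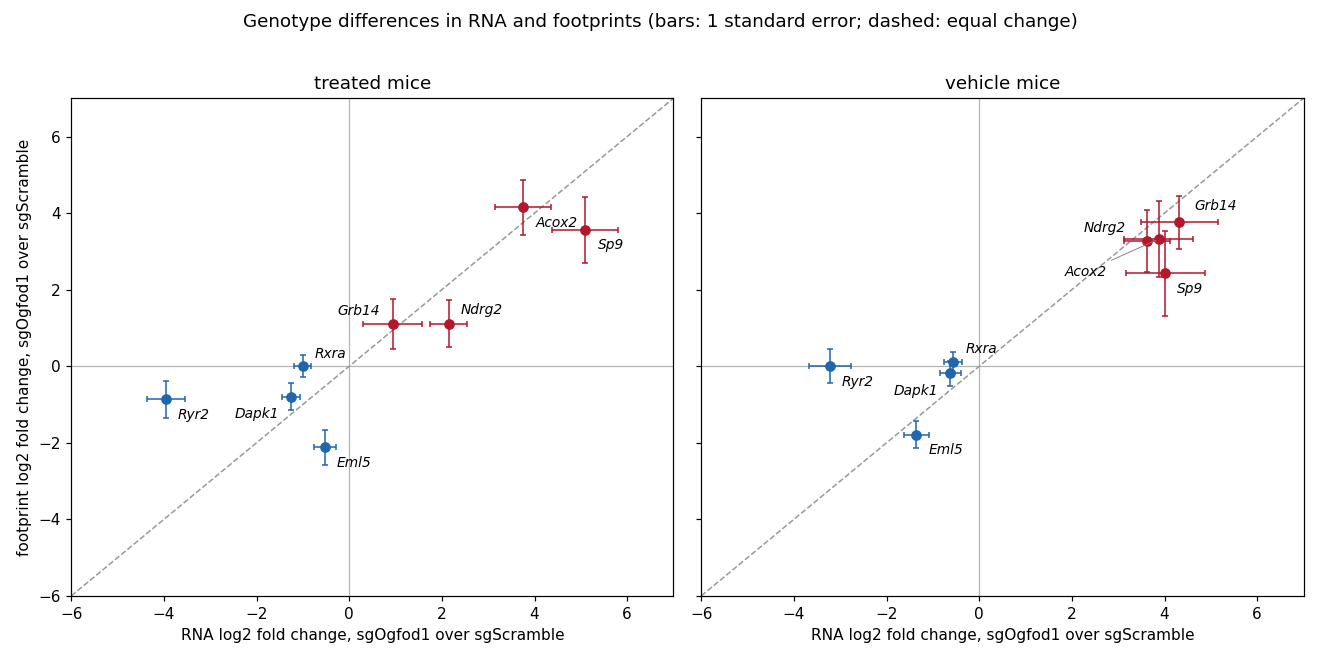
Log2 fold change of sgOgfod1 over sgScramble in footprints (vertical) against RNA (horizontal), in treated and in vehicle mice, with bars of 1 SE and a dashed line of equal change. Ryr2 lies far left of the dashed line, at -3.96 in RNA and -0.87 in footprints under treatment.

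The footprint-to-RNA ratio was compared mouse by mouse, as a description, since it uses the RNA values that chose the genes. It is the log2 ratio of footprint to RNA CPM with 0.25 added to each. For Ryr2 it was 0.98 and 0.93 in treated sgOgfod1 mice and -2.72, -2.25, -1.80 and -2.15 in treated sgScramble mice. Under vehicle it was 0.72, -0.35 and 2.02 in sgOgfod1 and -1.40, -0.83 and -3.00 in sgScramble mice. Ryr2 groups did not overlap in either condition, with the footprint reads assigned to muscle genes given above beside them. Rxra averaged -1.67 ± 0.47 in treated sgOgfod1 and -2.61 ± 0.45 in treated sgScramble mice, and -1.76 ± 0.45 in vehicle sgOgfod1 and -2.42 ± 0.23 in vehicle sgScramble mice, without overlap in either condition. Eml5 had the lowest ratio of the 8 in every group, from -5.15 ± 0.74 in treated sgOgfod1 to -3.95 ± 0.23 in vehicle sgScramble mice. The ratio is not scaled for length, and the RNA value of Eml5 is uncertain as given above. Eml5 groups did not overlap in either condition, with the ratio lower in sgOgfod1 mice. The ratio was also lower without overlap for Ndrg2 and Sp9 under treatment and for Grb14 and Acox2 under vehicle. For Dapk1 it was higher without overlap under treatment. The share of all genes without overlap at these group sizes was not computed, so nothing is read from how many genes did not overlap. RNA is the denominator of the ratio. Choosing a gene for higher RNA in sgOgfod1 mice by itself favours a lower ratio there, and choosing for lower RNA a higher one.

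**Figure D4:**
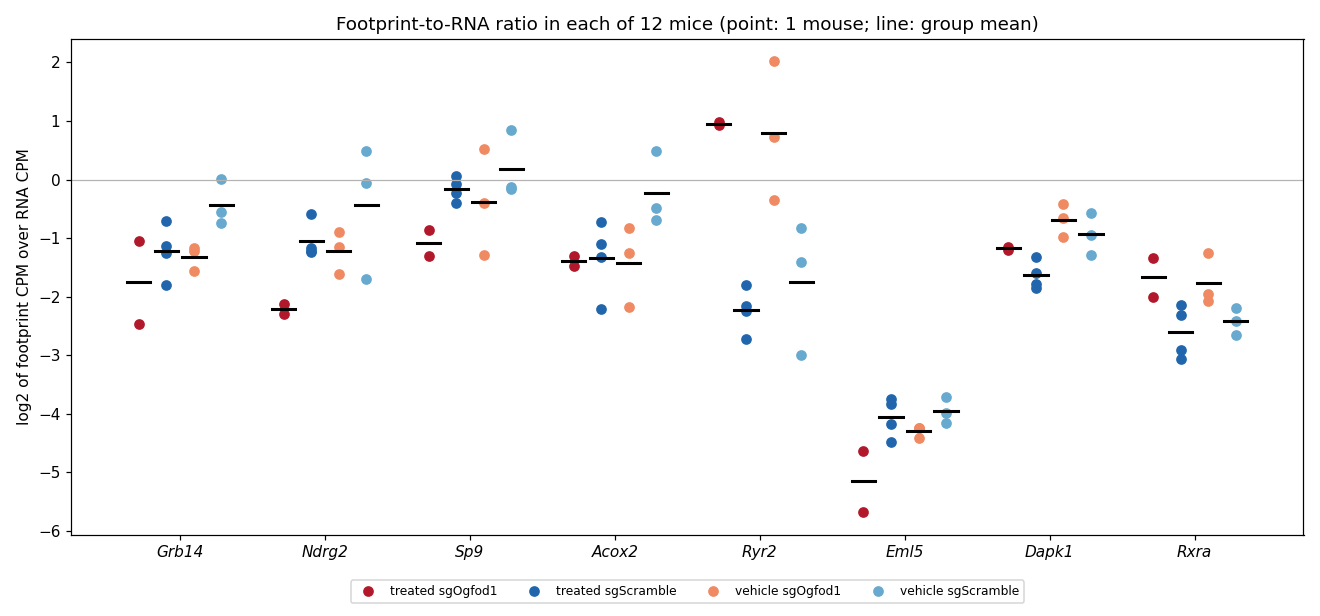
Log2 ratio of footprint to RNA CPM in each of the 12 mice with both assays, with a line at each group mean. Ryr2 is above 0 in 4 of 5 sgOgfod1 mice and below -0.8 in all sgScramble mice, and Eml5 lies lowest in every group. The ratio is not scaled for length.

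Treatment changed the RNA of 6 of the 8 genes, where the mean of both genotypes was tested because it is nearly uncorrelated with the contrasts that chose the genes. Ndrg2, Ryr2, Sp9, Acox2 and Dapk1 rose and Eml5 fell, against 27.2% of all genes called in either direction. Ndrg2 rose by 1.89 ± 0.32 on the log2 scale (SE, edgeR adjusted p = 0.000126), and Ryr2 by 1.49 ± 0.28 (edgeR adjusted p = 0.000491). Sp9 rose by 2.17 ± 0.53 (edgeR adjusted p = 0.00431) and Acox2 by 1.97 ± 0.47 (edgeR adjusted p = 0.00318). Dapk1 rose by 0.46 ± 0.15 (edgeR adjusted p = 0.0244), and Eml5 fell by 0.69 ± 0.18 (edgeR adjusted p = 0.00622). Grb14, at -0.19 ± 0.49, and Rxra, at 0.00 ± 0.13, had edgeR adjusted p of 0.811 and 0.999.

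All vehicle libraries carry numbers below 17, and 3 of 6 treated sgOgfod1 and 5 of 7 treated sgScramble RNA libraries carry 17 or higher. Among treated libraries numbered below 17 the calls of Eml5 and Dapk1 were lost, at -0.46 and 0.40 with edgeR adjusted p of 0.218 and 0.102, and the other 4 were kept. With a term for libraries numbered 17 or higher Eml5 and Dapk1 had -0.48 and 0.36, with edgeR adjusted p of 0.171 and 0.204. Among mice with a footprint library their calls were lost too, at -0.62 and 0.57. The Sp9 call was lost among those mice, at 2.02 with an edgeR adjusted p of 0.148. The Dapk1 call was also lost without vehicle sgOgfod1 replicate 1 or vehicle sgScramble replicate 2, at 0.41 and 0.42, and with no filter on low counts, at 0.47 with an edgeR adjusted p of 0.0574. Beside the treatment changes, summed neutrophil granule RNA was 21200 to 87100 CPM in treated sgOgfod1 and 17700 to 58700 CPM in treated sgScramble mice, against 7300 to 18200 and 7560 to 14300 CPM in vehicle sgOgfod1 and sgScramble mice, and 14 of 14 markers rose. Of 16 tissue macrophage markers 15 rose, with a median log2 fold change of 3.52 and sums of 1010 to 2640 CPM in treated sgOgfod1 and 1050 to 7270 CPM in treated sgScramble mice, against 712 to 1060 and 889 to 1270 CPM in vehicle sgOgfod1 and sgScramble mice. Of 11 tested erythroid markers 6 fell and 1 rose, with a median of -2.45 and sums of 2.65 to 4.52 CPM in treated sgOgfod1 and 2.41 to 11 CPM in treated sgScramble mice, against the vehicle sums given above. Their part in the gene changes was not tested.

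Within each genotype the treatment change was computed as a description, and the difference between genotypes was not tested. Grb14 RNA changed by -1.88 ± 0.70 in sgOgfod1 and 1.50 ± 0.72 in sgScramble cells (SE), which leaves a mean near 0. Ndrg2 RNA changed by 1.16 ± 0.43 and 2.63 ± 0.47, and Ryr2 RNA by 1.13 ± 0.42 and 1.86 ± 0.39, in sgOgfod1 and in sgScramble cells. Sp9 had 2.71 ± 0.73 in sgOgfod1 and 1.63 ± 0.79 in sgScramble cells, and Acox2 1.91 ± 0.64 and 2.04 ± 0.68. Eml5 had -0.27 ± 0.26 in sgOgfod1 and -1.10 ± 0.25 in sgScramble cells, and Dapk1 0.15 ± 0.21 and 0.78 ± 0.21. Rxra had -0.22 ± 0.19 in sgOgfod1 and 0.22 ± 0.19 in sgScramble cells.

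In footprints, Ndrg2 and Ryr2 rose and Eml5 fell with treatment, 3 of the 8, against 24.5% of all genes called. The changes were 1.62 ± 0.52 for Ndrg2, 1.02 ± 0.36 for Ryr2 and -1.19 ± 0.29 for Eml5 (SE), with edgeR adjusted p of 0.0459, 0.0471 and 0.00949. The calls of Ndrg2 and of Ryr2 were kept in 6 of 18 alternatives each. The Ndrg2 call was lost on leaving out any mouse but treated sgOgfod1 replicate 5 or treated sgScramble replicate 1, and the change was 0.46 without treated sgOgfod1 replicate 4. The Ryr2 call was lost on leaving out any mouse but vehicle sgScramble replicate 3, with the change between 0.81 and 1.34 over all 12. The Eml5 call was lost with the term for libraries numbered 17 or higher, at -1.17 with an edgeR adjusted p of 0.181, and without treated sgOgfod1 replicate 5, at an edgeR adjusted p of 0.0576. Without vehicle sgOgfod1 replicate 5 it was kept, at -0.77. Sp9 and Acox2 had 1.44 ± 0.78 and 1.74 ± 0.69 (SE), with edgeR adjusted p of 0.199 and 0.088. For translation efficiency 0 of the 8 genes were called by edgeR, where 0.78% of 28606 genes were. Ndrg2, Eml5 and Dapk1, 3 of the 8, had an unadjusted p under 0.05, as did 10.5% of all genes, with changes of -0.75 ± 0.35, -0.50 ± 0.20 and -0.60 ± 0.25 (SE).

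**Figure D5:**
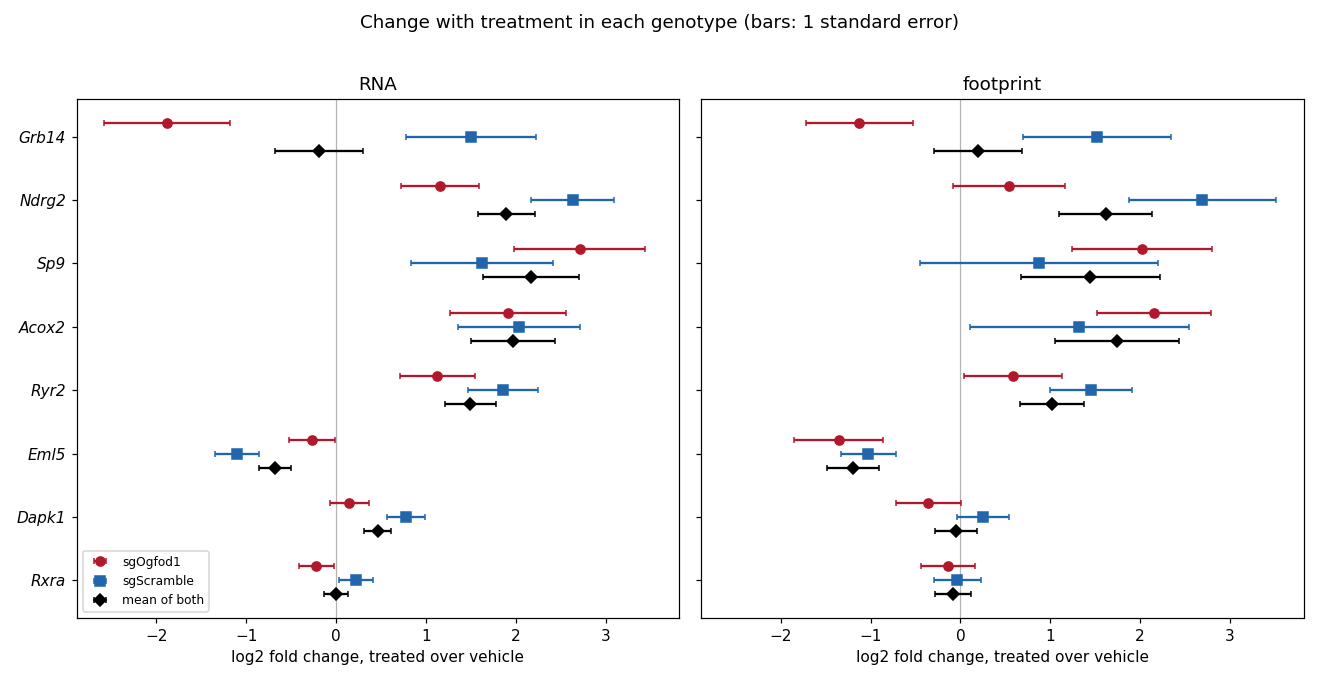
Log2 fold change of treated over vehicle mice for RNA and footprints, in sgOgfod1 cells, in sgScramble cells and as their mean, with bars of 1 SE. Grb14 points in opposite directions in sgOgfod1 and sgScramble cells in both assays, and the mean of Rxra lies near 0.

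Other genes of these pathways were counted in lists of 3 to 24 genes tested in RNA. There 0 calls is no result about a list, since edgeR called 0.391% of all genes in RNA under treatment and 0.116% under vehicle. DESeq2 called 2.68% and 0.536%, and 12.9% and 4.62% had an unadjusted p under 0.05 by edgeR. Among 24 tested genes of peroxisomal beta-oxidation, Slc27a2, a very long-chain acyl-CoA synthetase, was higher in sgOgfod1 RNA in both conditions and was the 1 gene called in each. Its RNA averaged 10.7 ± 6.64 CPM in treated sgOgfod1 and 1.07 ± 0.618 CPM in treated sgScramble mice, and 1.75 ± 0.571 CPM in vehicle sgOgfod1 and 0.125 ± 0.0866 CPM in vehicle sgScramble mice. The log2 fold changes were 3.32 ± 0.57 under treatment and 3.79 ± 0.73 under vehicle (SE, edgeR adjusted p = 0.00608 and 0.0386). Grb14 and Acox2 had the same adjusted p under vehicle, and their calls ended on leaving out any 1 vehicle mouse. Whether Slc27a2 kept its calls in the alternatives was not computed. Of 5 vehicle sgScramble libraries 1 reached the filter's level for Slc27a2. In footprints Scp2, a sterol carrier and thiolase, was higher by 0.54 ± 0.13 in treated sgOgfod1 cells (SE, edgeR adjusted p = 0.0488). It was 1 of 22 tested, where 1.58% of all genes were called in footprints under treatment. With the term for libraries numbered 17 or higher, 2 genes in all were called there, against 289 as reported. Whether Scp2 kept its call in the alternatives was not computed.

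Among 24 tested target genes of RXR heterodimers, Stra6, a membrane receptor for retinol transport, was called in RNA under treatment, at 6.23 ± 1.01 (SE, edgeR adjusted p = 0.00364). Stra6 RNA averaged 2.72 ± 2.84 CPM in treated sgOgfod1 and 0.0342 ± 0.0682 CPM in treated sgScramble mice, and 4.89 ± 2.78 CPM in vehicle sgOgfod1 and 0.115 ± 0.137 CPM in vehicle sgScramble mice. It passed the filter, about 0.178 CPM in at least 5 libraries, only through sgOgfod1 mice, with 3 of 12 sgScramble libraries at that level, so that its call is not independent of the filter. The median change of the list was -0.36 under treatment and 0.02 under vehicle, beside -0.04 and -0.01 over all genes tested. Of 20 RXR partner receptors and coregulators, edgeR called 0 in RNA in either condition, with 4 and 0 at an unadjusted p under 0.05 under treatment and vehicle, and DESeq2 called 0. Ncor1 and Ep300, its most abundant genes, had 0.08 ± 0.09 and -0.49 ± 0.30 under treatment and -0.04 ± 0.10 and -0.16 ± 0.33 under vehicle (SE).

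Counts in RNA for close relatives of the genes are read against the same shares. In footprints the shares of all genes called were 1.58% under treatment and 1.81% under vehicle. The term for libraries numbered 17 or higher gave 2 called genes in footprints under treatment, against 289 as reported. Whether the footprint calls below were kept in the alternatives was not computed. Of 21 genes of the Grb7 family and insulin receptor signalling 0 were called, with 5 and 2 at an unadjusted p under 0.05 under treatment and vehicle, and DESeq2 called 1 and 0. Its most abundant genes, Sqstm1 and Akt1, had -0.29 ± 0.24 and -0.24 ± 0.14 under treatment and -0.24 ± 0.27 and 0.05 ± 0.16 under vehicle (SE). Of the 3 other NDRG genes, the 5 EML genes and the 5 Sp genes 0 were called by edgeR or DESeq2 in either condition, and 1 gene, under vehicle in the NDRG family, had an unadjusted p under 0.05. Under treatment and vehicle in that order, Ndrg3 had 0.13 ± 0.14 and 0.27 ± 0.16, and Ndrg1, the gene with that p, -0.34 ± 0.18 and -0.45 ± 0.20 (SE). Eml4 had -0.06 ± 0.14 and 0.22 ± 0.16, and Eml2 -0.26 ± 0.16 and -0.11 ± 0.18. Sp3 had 0.07 ± 0.13 and -0.12 ± 0.15, and Sp1 -0.17 ± 0.19 and -0.02 ± 0.22. Of 18 death-associated kinases and partners 0 were called in RNA by edgeR, with 3 and 1 at an unadjusted p under 0.05 under treatment and vehicle, and DESeq2 called 1 and 0. In footprints under treatment Stk17b and Ulk1, 2 of 18 tested, fell by 0.73 ± 0.13 and 1.05 ± 0.23 (SE, edgeR adjusted p = 0.0127 and 0.0267). Of 23 tested genes of ryanodine and IP3 receptors with calcium handling, 0 were called in RNA by edgeR or DESeq2, with 2 and 0 at an unadjusted p under 0.05. In footprints 26 genes of this list were tested, and 2 were called under vehicle and 1 under treatment. In sgOgfod1 footprints under vehicle Camk2d, a calmodulin kinase, was higher by 2.71 ± 0.59 (SE, edgeR adjusted p = 0.0268). Sri, which binds ryanodine receptors, fell by 0.61 ± 0.14 there, and under treatment Asph fell by 0.87 ± 0.17 (SE, edgeR adjusted p = 0.029 and 0.0176).

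The nearest tested protein-coding genes on each side of the 8, and those overlapping them, made 18 genes. EdgeR and DESeq2 called 0 of the 18 between genotypes in RNA in either condition, and 3 under treatment and 0 under vehicle had an unadjusted p under 0.05. Against the shares of all genes given above these counts show nothing particular to the neighbours. The 3 were Fign and Cobll1 beside Grb14, at -3.39 ± 1.47 (on a mean of 0.183 CPM) and -0.92 ± 0.36, and Scrn3 beside Sp9, at 0.32 ± 0.13 (SE). Kctd6, the nearest of all that do not overlap, 1.95 kilobases from Acox2, had 0.07 ± 0.14 under treatment and 0.01 ± 0.15 under vehicle.

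Genes with a like pattern were sought by Pearson's r of log2(CPM + 1) over the 23 RNA libraries, which share the group differences that chose the genes. For Acox2 they were Des, Slc27a2 and Rassf6, with r of 0.939, 0.939 and 0.927, and for Sp9 they were Chrm1, Chrnd and Aif1l, with 0.934, 0.924 and 0.907. For Ndrg2 they were Ffar4, Acox2 and Cfap57, with 0.911, 0.902 and 0.896, and for Grb14 they were Gcnt4, Lhfp and Pcbd1, with 0.904, 0.845 and 0.829. For Ryr2 they were Dapk1, Pik3c2g and Cd163l1, with 0.894, 0.865 and 0.861, and for Dapk1 they were Ryr2, Pik3c2g and Etv5, with 0.894, 0.801 and 0.799. For Rxra they were Trim29, Cmip and Csnk1e, with 0.899, 0.884 and 0.876, and for Eml5 they were Hmcn1, Col4a1 and Rabgap1l, with 0.857, 0.850 and 0.836. Acox2 stood among the 3 genes most like Ndrg2, and Ryr2 and Dapk1 were each the gene most like the other. With the mean of each group taken off, r was 0.72 for Ndrg2 and Acox2 and 0.33 for Ryr2 and Dapk1.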

How the data were processed

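RNA (Smart-seq2) and ribosome footprints were measured in sorted leukemia cells, 1 mouse per library. The deposited files hold raw read counts per Ensembl gene. The submitters' processing notes name STAR, Bowtie2, featureCounts, cutadapt and SAMtools, and the builds GRCm38 and mm10. Tool versions, strandedness of counting and how reads with several matches were handled are not given in the sources used here. Columns were matched to samples by assay and library number.

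Counts were tested with edgeR 4.0.16 in R 4.3.3 (TMM scaling, filterByExpr with a minimum count of 10, robust quasi-likelihood test), in 1 fit per assay over the 4 groups with 19 and 8 residual degrees of freedom, and Benjamini-Hochberg adjustment over all genes. Intervals of 95% use the t distribution on each gene's total degrees of freedom. Translation efficiency was the assay-by-group term over 12 mice with both assays, with the mouse as a block and TMM within each assay. RNA and footprints of a mouse carry the same replicate number in the labels, and their deviations correlated at r = 0.13 to 0.582 over 13565 genes in 12 pairs. DESeq2 1.42.0, RLE scaling, no filter, a term for libraries numbered 17 or higher and leaving out each replicate were alternatives. The subsets of treated libraries below or from number 17 were added after seeing the data. The meaning of these numbers is not given. Figures used matplotlib 3.10.9 in Python 3.11.15.

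The 8 genes and all lists were chosen with earlier results of these data known. Genes were named by rule: the 8 and Ogfod1, up to 3 called genes per related list or else its 2 most abundant, the 3 genes most like each by Pearson's r, and nearest neighbours. The labels call the libraries of a group biological replicates, taken here as 1 mouse each. No replicate pair agreed within sampling noise (smallest chi-square per degree of freedom 17.2 in RNA and 6.2 in footprints). Duplicate reads were not told apart, so counts of few reads carry counting error beyond what SDs show. Fits were checked on simulated counts, with less spread between mice in RNA than the data hold. Changes were put into well-counted genes alone, so the check does not cover genes of few reads.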

Additional observations from a re-analysis of the deposited data

Results flagged for a closer look

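In 40 groups of 4 to 7 mice, 3 libraries lay apart from the rest of their group by Dixon's 95% criterion, which chance alone meets in about 1 group of 20. Eml5 RNA was 114 CPM in treated sgOgfod1 replicate 2, where the other 5 mice of the group had 35.1 to 59.8 CPM. Acox2 footprints were 1.03 CPM in treated sgScramble replicate 3, where the others had 0.271 to 0.357 CPM. Ryr2 footprints were 4.76 CPM in treated sgScramble replicate 2, where the others had 2.50 to 2.71 CPM. Grb14 footprints changed with treatment by -1.13 ± 0.60 in sgOgfod1 cells and by 1.52 ± 0.83 in sgScramble cells on the log2 scale (SE). Every treated sgOgfod1 mouse lay below the vehicle sgOgfod1 mean and every treated sgScramble mouse above the vehicle sgScramble mean. That difference between genotypes was not tested.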

How the results depend on the processing

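Over 813 alternatives for the tested changes of single genes, 672 kept direction and call, 64 lost a call, 19 gained one and 58 changed sign. Of 496 for the RNA differences between genotypes, given as a description, 494 moved by less than the spread between mice and 2 by more (the Ryr2 values among treated libraries split at number 17). Among them a call was lost in 43 and gained in 7 under vehicle, and lost in 8 under treatment. Leaving out 1 replicate gave 3 to 68 called genes for genotype in RNA under vehicle (25 as reported), 48 to 376 under treatment (84), 4912 to 6560 for treatment (5838), 70 to 537 for genotype in footprints under vehicle (331), 116 to 505 under treatment (289), 3461 to 4488 for treatment (4485) and 107 to 305 for translation efficiency (223). In the same order, no filter gave 16 in RNA under vehicle and, in footprints, 1012 under vehicle and 929 under treatment, and 689 for efficiency. DESeq2 gave 115 and 575 in RNA and 610 and 582 in footprints under vehicle and treatment. Without the pair of libraries standing apart RNA gave 88 under vehicle and 394 under treatment, and mice with footprints gave 39, 587 and, for treatment, 2981. Treated RNA libraries below 17 gave 335 and those from 17 gave 1190, and footprint libraries from 17 gave 7. The term for libraries from 17 gave 3527 for treatment in RNA, and 2 for genotype under treatment and 727 for treatment in footprints. Protein-coding genes gave 2871 for treatment in footprints and 528 for efficiency, and efficiency without the mouse block gave 90. The causes were not tested.

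Same-numbered mice of different groups correlated at -0.429 to 0.481 in RNA (31 pairs) and -0.092 to 0.081 in footprints (11 pairs), so the numbers do not pair them. The replicate block gave 19 and 29 genes for genotype in RNA under vehicle and treatment, 4123 for treatment, 94 and 122 for genotype in footprints and 3742 for treatment. With it the footprint calls of Grb14 (adjusted p = 0.124 by edgeR) and Eml5 (0.0859) under vehicle and of Eml5 (0.248) and Acox2 (0.284) under treatment were lost.

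Signs changed for values near 0 or resting on few mice. For treatment in RNA, Grb14 (-0.19) was 0.10 with the replicate block, 0.023 with the term, 0.53 in mice with footprints and 0.058 below 17. Rxra (0.00) was 0.004 with no filter, 0.033 with the block, 0.094 with the term, 0.030 without the pair, 0.076 below 17 and -0.067 to 0.053 with 1 replicate left out. For genotype in footprints under vehicle, Ryr2 (0.00) was -0.043 by DESeq2 and -0.40 to 0.67 with 1 replicate left out, Dapk1 (-0.19) was 0.10 with the block, and Rxra (0.11) was -0.15 with the block and -0.007 to 0.25 with 1 replicate left out. Under treatment, leaving out 1 replicate gave -1.99 to 2.01 for Grb14, -1.21 to 1.96 for Ndrg2 and -0.14 to 0.19 for Rxra. The block gave -0.091 for Ndrg2 and -0.35 for Rxra, and Rxra was -0.32 with the term and -0.33 from 17. For treatment in footprints, Grb14 (0.20) was -0.28 with the term and -1.35 to 0.65 with 1 replicate left out, and Dapk1 (-0.05) was 0.14 with the block, 0.023 in protein-coding genes and -0.44 to 0.20 with 1 replicate left out. For efficiency, Ryr2 (-0.35) was -0.67 to 0.10 and Rxra (0.01) -0.19 to 0.15 with 1 replicate left out, and Rxra was -0.017 with RLE, -0.036 with no filter and -0.001 without the mouse block. The causes were not tested. Footprint libraries with under 10 reads of a gene limit what can be seen there.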
